A study of Homo sapiens with 9 samples.

Results

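The HOX genes encode homeodomain transcription factors and lie in 4 clusters, HOXA on chromosome 7, HOXB on chromosome 17, HOXC on chromosome 12 and HOXD on chromosome 2. All protein-coding genes of the GENCODE annotation on GRCh37 with a symbol of HOXA, HOXB, HOXC or HOXD and a number were taken, 39 of 20163 protein-coding genes, with 11 in HOXA, 10 in HOXB, 9 in HOXC and 9 in HOXD. Peaks of the 4 lists were merged into regions, and a region was assigned to the HOX genes when it overlapped a HOX gene body or lay within 10 kb of a HOX transcription start site (TSS). This gave 12 HOX regions of 40703 merged regions in all, 3 in HOXA, 3 in HOXB, 4 in HOXC and 2 in HOXD. The choice used only gene names and positions, and no measured value.

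Chromatin accessibility was measured by FAIRE-seq (formaldehyde-assisted isolation of regulatory elements), in which cross-linked chromatin is sheared and DNA with few nucleosomes is recovered from the aqueous phase of a phenol-chloroform extraction. The cells were Jurkat clone E6-1, an established human T cell leukaemia line, so every library comes from 1 clonal line. Each of the 4 lists holds the peaks of 1 library, called against total input DNA. The labels assign them to non-stimulated cells (NS) and to cells rested after withdrawal of the stimulus (SW), each pre-treated with DMSO, the vehicle, or with 15 µM rottlerin, a kinase inhibitor, for 1 h. Per the labels the stimulus before rest was PMA with ionomycin for 4 h, and rest lasted 1 day after washing, while the study's methods give a shorter stimulation. The study's methods instead call peaks on DMSO libraries alone, in the NS, stimulated, SW and re-stimulated states, and merge those. The 4 lists merged here to 40731 regions, 28 of which lay outside the autosomes, X and Y. The study's methods give the same total for its 4 DMSO libraries. For that reason a list is named here by its label, as "the list labelled SW DMSO", and no difference is drawn between drugs or cell states. The series has 9 samples, and the other 5 were not analysed here.

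A HOX cluster that a cell does not use is held closed by Polycomb complexes, MLL (trithorax) complexes keep it active where it is used, and the order of the genes along the chromosome mirrors the order in which they are used along the body axis. Genes with the same number in different clusters are paralogues that derive from one ancestral gene. In blood, HOX genes of the early and middle groups are active in stem and progenitor cells and fall silent as lymphocytes mature, and several HOXA genes are switched on again in subsets of T cell leukaemia.

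A peak carries 3 values used here. The fold enrichment is the ratio of FAIRE signal to total input within the peak, the score is 10 times the −log10 q-value with its decimals dropped, and a fold can be placed within its own list by the percentage of that list's peaks that lie below it. The lists labelled NS DMSO, SW DMSO, NS rottlerin and SW rottlerin held 18977, 20132, 23835 and 30409 peaks, with median folds of 4.05, 4.03, 4.08 and 4.03 and a lowest score of 10 in each. With 1 library per list there are no replicates, so counts and values are given as a description and without p-values. A peak list does not tell how deeply its library was sequenced, and a place without a peak was not called at that library's depth, which does not show that it was closed. As a check of the cell line, 6 of 8 T cell genes had a region within 1 kb of a TSS, 4 of them (CD3E, CD3D, CD28 and LCK) in all 4 lists, against 0 of 6 genes of other lineages, where all protein-coding genes stood at 53.1% and 35.2%. CD3G had one in the list labelled NS DMSO alone and TAL1 in those labelled SW DMSO and SW rottlerin, while CD2 and TRAC had none. Over whole windows the contrast with other lineages was narrower. There 4 of the 6 other-lineage genes and 8 of 8 T cell genes had a region in the gene body or within 10 kb.

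The DNA of 4 HOX regions is printed here because it spans the range from GC-rich to CpG-poor sequence seen among the HOX regions, and because 2 of the 4 stretches carry an AP1 motif, the element bound by the FOS and JUN factors that PMA induces. All are plus-strand GRCh37 sequence, 5′ to 3′. In the first, chr12:54411690-54411984 in an intron of HOXC4 and HOXC6, capitals mark every CpG dinucleotide.
HOXC4 region: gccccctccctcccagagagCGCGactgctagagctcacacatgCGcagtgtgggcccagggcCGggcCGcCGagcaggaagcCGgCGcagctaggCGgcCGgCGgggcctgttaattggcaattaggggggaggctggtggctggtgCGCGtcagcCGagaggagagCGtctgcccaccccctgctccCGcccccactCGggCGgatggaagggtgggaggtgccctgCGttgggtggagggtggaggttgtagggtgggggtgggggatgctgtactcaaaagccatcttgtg

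The next 3 are the region upstream of HOXA4 (chr7:27174039-27174307), the central 300 bp of the region between HOXD13 and HOXD12 (chr2:176961999-176962298) and the central 300 bp of the region upstream of HOXD1 (chr2:177051988-177052287). Here capitals mark the AP1 motif TGANTCA, which the HOXD1 stretch lacks.
HOXA4 region: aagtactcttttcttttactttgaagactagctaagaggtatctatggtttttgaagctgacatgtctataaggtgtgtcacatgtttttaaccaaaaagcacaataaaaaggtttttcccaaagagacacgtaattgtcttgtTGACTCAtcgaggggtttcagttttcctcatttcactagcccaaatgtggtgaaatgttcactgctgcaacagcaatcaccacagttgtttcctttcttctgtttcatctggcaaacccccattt
HOXD12 region: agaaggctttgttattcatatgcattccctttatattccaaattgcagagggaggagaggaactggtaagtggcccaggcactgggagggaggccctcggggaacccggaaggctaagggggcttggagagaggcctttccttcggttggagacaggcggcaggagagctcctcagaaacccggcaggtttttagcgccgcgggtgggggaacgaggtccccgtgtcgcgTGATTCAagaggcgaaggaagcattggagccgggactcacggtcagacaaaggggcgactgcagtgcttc
HOXD1 region: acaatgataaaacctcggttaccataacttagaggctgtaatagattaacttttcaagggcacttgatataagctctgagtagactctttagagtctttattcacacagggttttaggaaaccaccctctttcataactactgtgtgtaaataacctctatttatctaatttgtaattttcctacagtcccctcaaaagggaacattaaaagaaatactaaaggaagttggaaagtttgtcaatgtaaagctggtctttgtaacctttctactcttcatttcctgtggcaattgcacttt

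The contrast is visible in the letters. The HOXC4 stretch holds 19 CpG dinucleotides, while the HOXD1 stretch holds 1 and the HOXA4 stretch 2. The HOXD12 stretch, 2028 bp from a TSS, holds 16 CpG beside its AP1 motif.

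Most HOX start sites had no FAIRE peak in any list. A region lay within 1 kb of a TSS for 6 of 39 HOX genes (15.4%), against 53.1% of all protein-coding genes. They included HOXB3, HOXB4, HOXB5, HOXC4 and HOXC8, and were served by 5 regions since HOXB3 and HOXB4 share one. No HOXD gene was among them, and neither was any gene of paralogue groups 2, 6, 7 or 9 to 13, the last of which are the posterior groups that pattern the trunk, limbs and genital tract. HOXC4 was the only 1 of the 39 with a region in all 4 lists within 1 kb (2.56%), against 35.2% of all protein-coding genes.

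A start site rich in CpG is often accessible whether or not its gene is active, so HOX genes were also set beside genes of the same kind. A 5′ end was counted as CpG-rich when the 250 bp on each side held over 50% GC and an observed-to-expected CpG ratio over 0.6. By this measure 25 of 39 HOX genes (64.1%) were CpG-rich, near the 58.9% of all protein-coding genes. Of these 25, only 3 had a region within 1 kb of a TSS, against 69.0% of CpG-rich protein-coding genes, and 0 had one in all 4 lists, against 48.4%. The other 22 CpG-rich HOX starts had no peak within 1 kb.

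The low share was seen in every list taken alone. In the list labelled NS DMSO 1 of 39 HOX genes had a region within 1 kb (40.5% of all protein-coding genes), in the list labelled SW DMSO 3 (41.7%), in the list labelled NS rottlerin 2 (45.1%) and in the list labelled SW rottlerin 5 (49.8%). Among the 25 CpG-rich HOX genes the counts in the same order were 0, 1, 1 and 3, where CpG-rich genes in general reached 54.7%, 55.9%, 60.2% and 65.6%. Both HOX counts were highest in the longest list, labelled SW rottlerin, and lowest in the shortest, labelled NS DMSO.

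**Figure D1:**
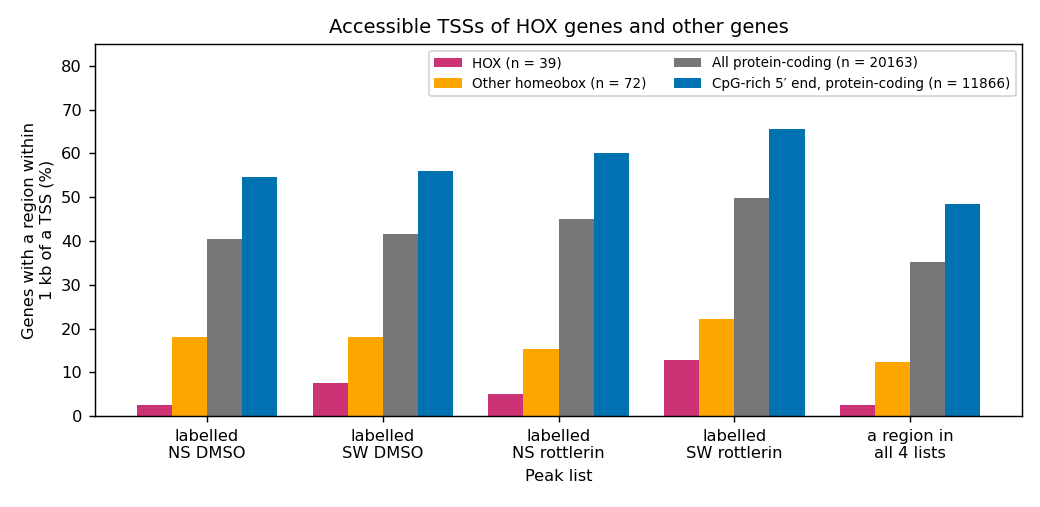
Share of genes with a region within 1 kb of a TSS (vertical axis, percent) in each peak list and in all 4 lists together, for HOX genes, other homeobox genes, all protein-coding genes and those with a CpG-rich 5′ end. The HOX bar is the lowest in every group, between 2.56% and 12.8%, while all protein-coding genes lie between 35.2% and 49.8%.

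Other homeobox genes, which also encode developmental regulators and are often CpG-rich (59 of 72 by the same measure), stood between the HOX genes and the genome. Of 72 such genes 25.0% had a region within 1 kb and 12.5% had one in all 4 lists. Clustered histone genes, used by every dividing cell, reached 67.6% and 54.4% (68 genes), and zinc-finger genes of chromosome 19, another large tandem family, reached 55.0% and 40.4% (240 genes). These 3 families were chosen for comparison after the data had been seen, and no test was made.

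When the whole window was used, the gene body and 10 kb on each side of every TSS, HOX genes came closer to the genome. A region of at least 1 list lay in the window of 26 of 39 HOX genes (66.7%), against 72.3% of all protein-coding genes, and of 18 of 25 CpG-rich ones, against 84.1%. The windows are crowded, and 10 of the 12 regions lay in the windows of more than 1 HOX gene, so genes that share a region are not separate observations. HOX windows were also short, with a median of 20.7 kb against 39.7 kb for all protein-coding genes. Other homeobox genes, with a median window of 22.4 kb, had a region in the window for 38 of 72 (52.8%). Here they stood below the HOX genes.

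Regions found in every list were the exception. Just 3 HOX genes (7.69%), HOXC4, HOXC6 and HOXC8, had a region of all 4 lists in their window, against 46.8% of all protein-coding genes, and all 3 through the same region. Of the 25 CpG-rich HOX genes 1 did, HOXC8, against 59.2%. By list, 5 HOX genes had a window region in the list labelled NS DMSO (56.8% of all genes), 14 in SW DMSO (58.4%), 8 in NS rottlerin (62.4%) and 16 in SW rottlerin (67.3%). The 13 HOX genes without any region in their window were HOXA6, HOXA7, HOXA9, HOXB1, HOXB2, HOXB13, HOXC5, HOXC12, HOXD3, HOXD4, HOXD8, HOXD9 and HOXD10.

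The 4 clusters were unlike each other, as the map of peaks along each cluster shows. HOXA had regions by HOXA4 and HOXA11, HOXB in its central genes, HOXC along its length, and HOXD only at its 2 ends.

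**Figure D2:**
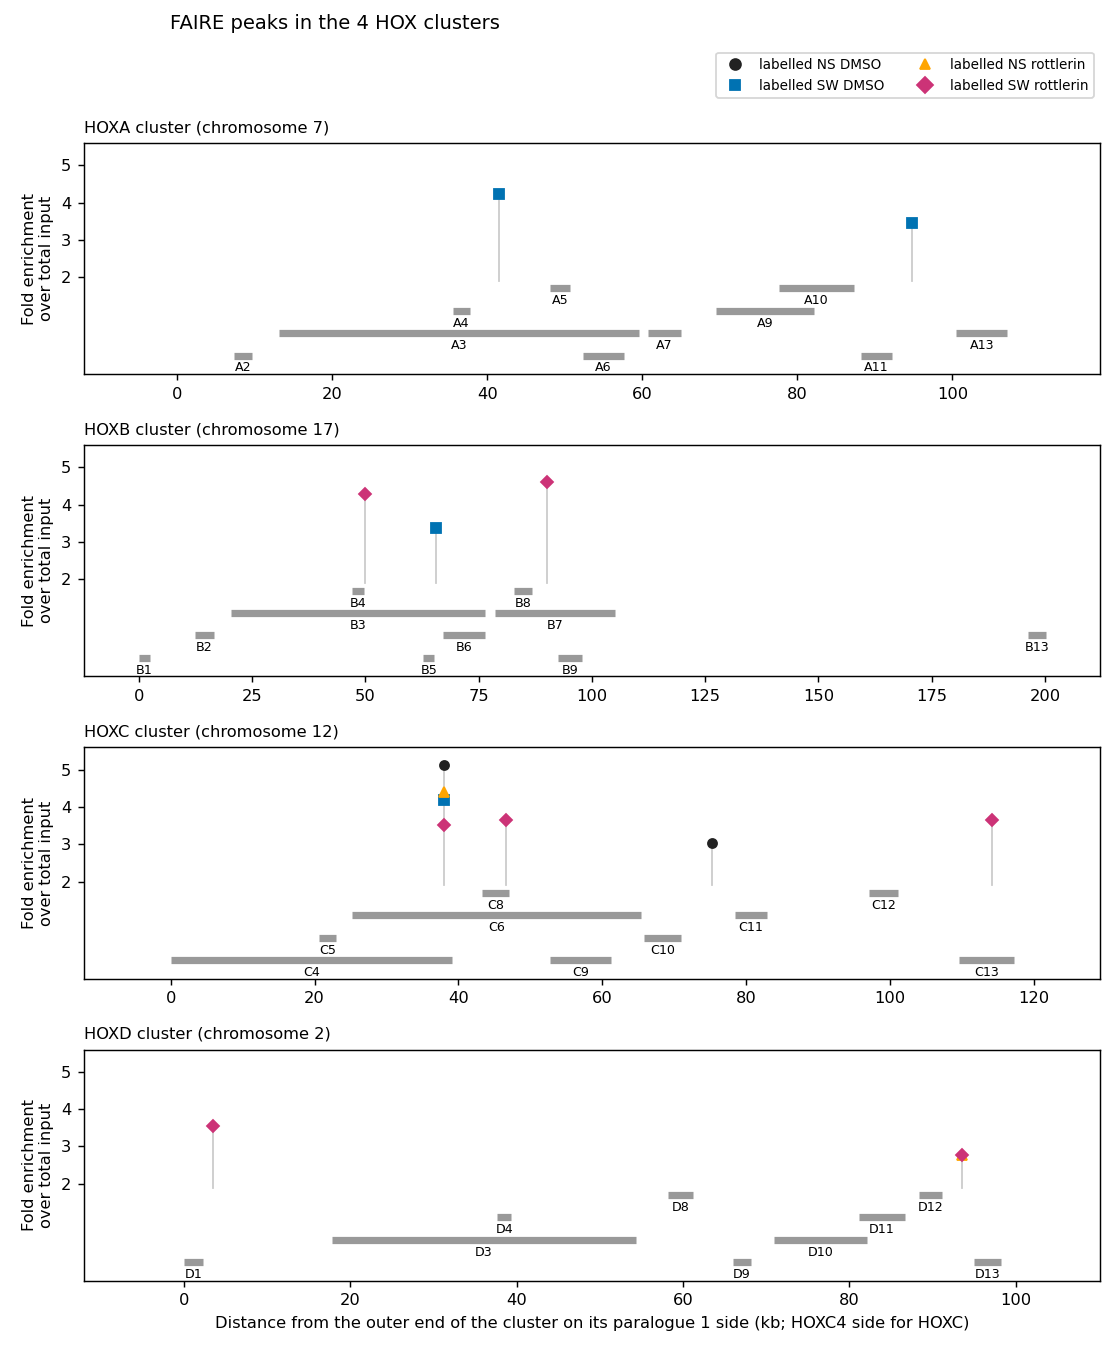
Fold enrichment over total input (vertical axis) of the peaks in 11 of the 12 HOX regions against distance along the cluster in kb (horizontal axis), with one symbol per list and gene bodies as grey bars below, their height carrying no value. Only the HOXC4 region carries all 4 symbols, and 9 regions carry 1.

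HOXA, whose genes pattern the hindbrain, the limbs and the reproductive tract, had 3 regions, and none of them was in the list labelled NS DMSO. Both of those described here were in the list labelled SW DMSO alone. The region chr7:27174039-27174307, 3640 bp upstream of HOXA4 and in an intron of HOXA3 and of the noncoding HOXA-AS3, had a fold of 4.22 and a score of 69, above 57.9% of its list. This is the stretch printed above with an AP1 motif at its bases 145 to 151 and a GC content of 38.3%. The region chr7:27227332-27227545 lay 2481 bp upstream of HOXA11, a regulator of forearm and uterine development, in an exon of HOXA11-AS, with a fold of 3.45 and a score of 42, above 23.6% of its list. HOXA9 and HOXA7, members of this cluster that are often active in leukaemia, had no region in their windows, and the distances from their 5′ ends to the nearest region of any list were 12.5 kb and 23.2 kb.

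In HOXB none of the 3 regions was shared between lists and none was in either list with an NS label. The region chr17:46655721-46655906 lay 9 bp upstream of the TSS of HOXB4 (ENSG00000182742.6_9), which promotes the growth of blood stem cells. It overlaps an untranslated exon of a longer HOXB3 transcript, and its fold in the list labelled SW rottlerin was 4.28 with a score of 84, above 58.9% of that list. The region chr17:46671317-46671481 lay 176 bp upstream of the TSS of HOXB5 in an intron of HOXB3 and had a fold of 3.38 and a score of 38 in the list labelled SW DMSO, above 20.6% of it. The third, chr17:46696010-46696194, lay 3356 bp upstream of HOXB8 in an intron of HOXB7, and its fold of 4.62 in the list labelled SW rottlerin, above 69.4% of that list, was the highest in HOXB. HOXB13, a gene of the prostate and hindgut that stands far from the rest of its cluster, was 42.2 kb from any region.

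HOXC held the one HOX region with a peak in all 4 lists. It is chr12:54411690-54411984, 295 bp wide, in an intron shared by HOXC4 and HOXC6 and 975 bp downstream of a HOXC4 TSS (ENSG00000198353.8_8). HOXC4 is the HOXC member best known from lymphocytes. The folds were 5.13 in the list labelled NS DMSO, 4.19 in SW DMSO, 4.41 in NS rottlerin and 3.53 in SW rottlerin, with scores of 135, 80, 93 and 51. Within their lists they exceeded 81.8%, 56.6%, 61.7% and 27.6% of peaks, so the highest and lowest of the 4 values differed in rank as well as in size. Over all regions shared by the 4 lists the median folds were 4.44, 4.38, 4.64 and 4.81, so the list labelled SW rottlerin, lowest at this region, was the highest of the 4 in general. Without replicates, how far such values scatter between libraries of one kind is not known.

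The remaining 3 HOXC regions were each in 1 list. The region chr12:54374478-54374702, between genes and 4147 bp upstream of HOXC10, was the only HOX region of the list labelled NS DMSO alone, with a fold of 3.03 and a score of 17, above 6.82% of that list. The region chr12:54403115-54403293 lay within the coding sequence of HOXC8, a gene of the thoracic segments, 346 bp downstream of its TSS, with a fold of 3.66 and a score of 38 in the list labelled SW rottlerin. The region chr12:54335562-54335787 lay in the intron of HOXC13, the hair and nail keratin regulator, 2947 bp downstream of its TSS, with a fold of 3.66 and a score of 43 in the same list. All 3 were below the median fold of their lists.

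HOXD, whose posterior genes shape the limbs and digits, had only 2 regions and none in a list with a DMSO label. The region chr2:176961802-176962495, between HOXD13 and HOXD12 and 2028 bp upstream of HOXD12, was the widest HOX region at 694 bp and the weakest, with folds of 2.76 in the list labelled NS rottlerin and 2.78 in SW rottlerin and a score of 16 in each. Only 2.18% and 2.30% of the peaks of those lists had lower folds, and 8.44% of all regions had peaks in just this pair of lists. Its printed centre carries an AP1 motif at bases 231 to 237. The region chr2:177051975-177052301 lay 1095 bp upstream of HOXD1 in an intron of the noncoding HAGLR, just outside the 1 kb limit, with a fold of 3.55 and a score of 31 in the list labelled SW rottlerin. A CpG-rich 5′ end was found for 8 of the 9 HOXD genes, the most of any cluster, and 0 had a region within 1 kb.

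Few HOX regions were shared between lists. Of the 12 regions 9 had a peak in exactly 1 list, against 38.8% of all merged regions, and 1 had a peak in all 4, against 26.6%. A peak of the list labelled NS DMSO was present in 2 of 12, against 46.5% of all. The list labelled SW rottlerin alone accounted for 5, against 18.2% of all, and the list labelled SW DMSO alone for 3, against 4.32%. Of the 9 regions in 1 list, 6 had a fold under the median of that list. The same share over all regions in 1 list was not taken, so this is not read as particular to HOX regions.

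By list the HOX regions numbered 2 in NS DMSO, 5 in SW DMSO, 3 in NS rottlerin and 8 in SW rottlerin. Since the lists differ in length, the counts were also taken per 10000 peaks, which gave 1.05, 2.48, 1.26 and 2.63. The higher values were those of the lists labelled SW DMSO and SW rottlerin, on counts of 8 at most and with 1 library each. No difference between cell states is read from them. Of the 18 peak values in the 12 regions, 11 lay below the median fold of their list, with no share from regions in as few lists to set beside it.

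Over the DNA of the windows, the HOX genes held about as many regions as all protein-coding genes but few shared by all lists. The windows of the HOX genes cover 0.513 Mb and held 2.34 regions per 100 kb, against 2.08 in the windows of all protein-coding genes and 2.55 in those of other homeobox genes. Clustered histone genes, with windows as short as those of HOX genes, held 8.33, and zinc-finger genes of chromosome 19 held 1.86. Windows of all protein-coding genes have a median of 39.7 kb against 20.7 kb for HOX, so they hold more DNA far from a TSS. The densities are thus not on equal terms. Regions of all 4 lists numbered 0.195 per 100 kb in HOX windows, against 0.635 for all protein-coding and 0.711 for other homeobox genes. In the list labelled NS DMSO the density was 0.390 per 100 kb in HOX windows against 1.03 in all, and in the list labelled SW rottlerin it was 1.56 against 1.59.

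Against their own neighbourhoods the clusters differed. HOXB held 1.38 regions per 100 kb, while the 500 kb flanks held 5.20 and 3.60. HOXC held 2.96 beside flanks of 3.40 and 3.60. HOXA held 2.42, more than its flanks at 0.80 and 1.80. HOXD held 1.72 beside flanks at 1.20 and 2.20, but these values are not counted alike. The HOXD count leaves out a region within the span of the cluster, chr2:177039729-177039948, that lies outside the HOX windows. The flanks count every region, so the place of HOXD against them is not read. The flanks contained regions of all 4 lists on both sides of every cluster, 1 and 1 for HOXA, 8 and 8 for HOXB, 6 and 6 for HOXC and 2 and 3 for HOXD, where inside the clusters there was 1 in HOXC.

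**Figure D3:**
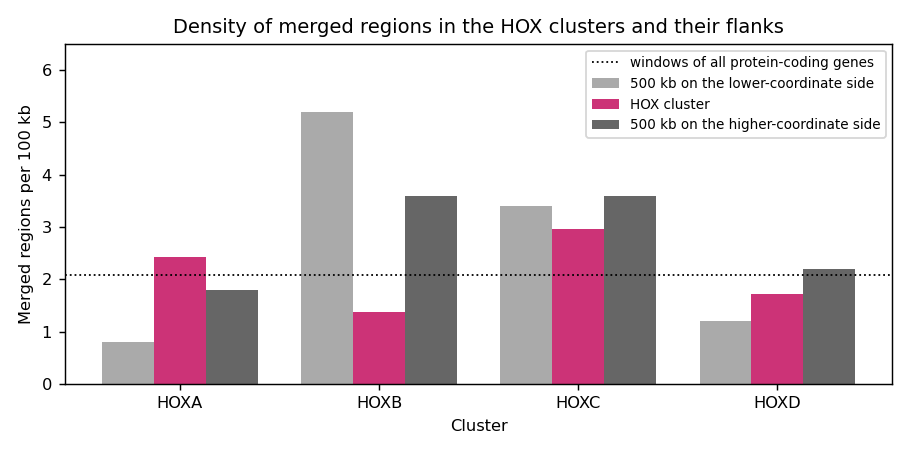
Merged regions per 100 kb (vertical axis) in each HOX cluster and in the 500 kb on its lower-coordinate and higher-coordinate sides, with the value for the windows of all protein-coding genes as a dotted line at 2.08. HOXB stands at 1.38 between flanks of 5.20 and 3.60, and HOXA at 2.42 is above both of its flanks. The HOXD bar leaves out a region within its span that lies outside the HOX windows, while the flanks count every region.

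The distance from the 5′ end of each HOX gene to the nearest peak gives every gene a value in every list. Its median over the 39 HOX genes was 120 kb in the list labelled NS DMSO, 23.2 kb in SW DMSO, 53.8 kb in NS rottlerin and 15.2 kb in SW rottlerin. For all protein-coding genes it was 14.6, 13.0, 9.10 and 4.94 kb. For the 72 other homeobox genes it was 35.0, 49.4, 31.2 and 23.2 kb. These were longer than the HOX medians in the lists labelled SW DMSO and SW rottlerin and shorter in the others. The list labelled SW DMSO is shorter than NS rottlerin and had the shorter HOX median. Over all genes the median fell with each longer list, but over other homeobox genes it did not. Many HOX genes share a nearest peak, so a few peaks set the HOX medians, and what lies behind their order was not tested.

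The median over the 11 HOXA genes was 478 kb in the list labelled NS DMSO, and 3.91% of protein-coding genes were as far from a peak. In the list labelled SW DMSO the median was 8.99 kb and the highest 23.2 kb, in NS rottlerin 56.3 kb and 104 kb, and in SW rottlerin 56.4 kb and 104 kb. The NS DMSO range did not overlap that of any other list. Genes of 1 cluster share their nearest peak, so these are not 11 separate observations.

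HOXB genes lay 47.3 to 150 kb from a peak of the list labelled NS DMSO and 42.0 to 145 kb from one of NS rottlerin, but 0.176 to 88.3 kb in SW DMSO and 0.009 to 42.2 kb in SW rottlerin. HOXD genes lay 90.3 to 134 kb away in NS DMSO and 80.7 to 133 kb in SW DMSO, but 2.03 to 80.7 kb in NS rottlerin and 1.10 to 38.4 kb in SW rottlerin. In NS DMSO and NS rottlerin, 31.9% and 28.9% of protein-coding genes were at least as far from a peak as the closest HOXB gene. For the closest HOXD gene the shares were 20.7% in NS DMSO and 21.1% in SW DMSO. For the closest HOXA gene in NS DMSO the share was 4.45%. Genes of 1 cluster share a few nearest peaks and each list is 1 library, so no difference between labels is read from the ranges. HOXC, with its region in all 4 lists, was at 0.978 to 41.9 kb in NS DMSO.

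**Figure D4:**
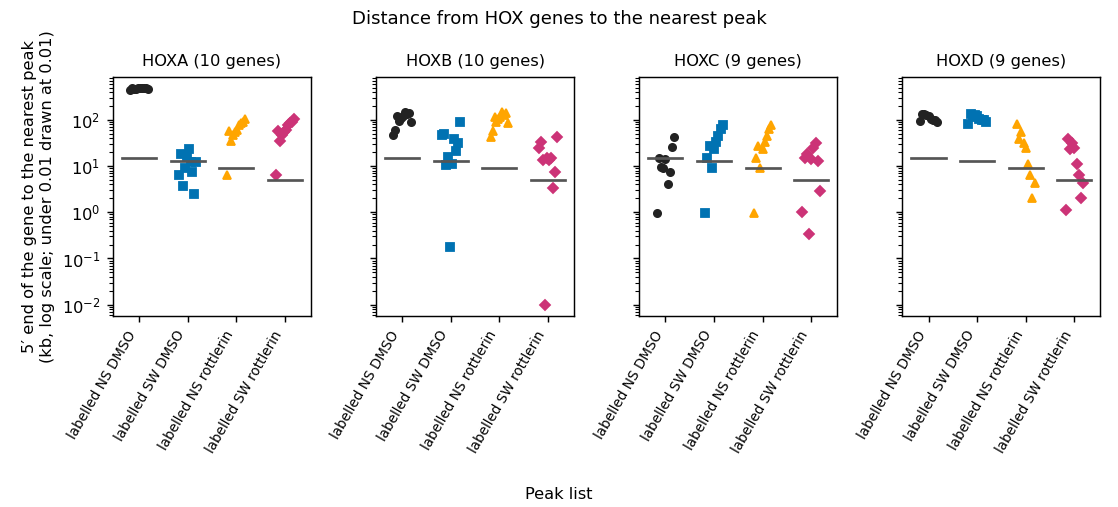
Distance in kb (vertical axis, log scale, values under 0.01 drawn at 0.01) from the 5′ end of HOX genes to the nearest peak, by cluster and list, with 1 point per gene for 10 of the 11 HOXA genes and all others, and a grey bar at the median of all protein-coding genes. HOXA genes sit at up to 490 kb in the list labelled NS DMSO and at 23.2 kb or less in the list labelled SW DMSO.

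The choice of regions used their distance to HOX genes, so their positions are a description only. Of the 12 regions 8 lay upstream and 3 downstream of the nearest HOX TSS, and 6 lay in a HOX intron. Within 1 kb of a protein-coding TSS were 5 of the 12, beside 28.4% of all merged regions, which include those far from any gene. Sequence content was not part of the choice, but closeness to a TSS was. No values from regions equally near a TSS were set beside those that follow. GC content in the central 300 bp ran from 35.0% to 69.0% with a median of 55.3%, against a median of 46.3% for all regions. CpG dinucleotides ran from 1 to 25 with a median of 14, against 4. By the measure used for 5′ ends, 7 of 12 regions were CpG-island-like, against 21.0% of all.

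The HOXC4 region was not among these 7, since its observed-to-expected CpG ratio was 0.552 in spite of a GC content of 69.0%, the highest of the 12. The HOXC8 region held the most CpG at 25, and the HOXD1 region the fewest at 1. HOX regions were also narrower than most, 165 to 694 bp with a median of 226 bp against 294 bp. Their highest fold in any list had a median of 3.66 against 4.10. A region in more lists unites more peaks, so it can be wider and its highest fold larger. Of the 12 HOX regions 9 were in 1 list, against 38.8% of all, so neither comparison is on equal terms.

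Motifs were searched as fixed letters on both strands of the central 300 bp. AP1, TGANTCA, was found in 2 of 12 HOX regions, those of HOXA4 and HOXD12, against 17.9% of all regions. The core TAATNA, which many homeodomain proteins bind, was found in 2 of 12, those of HOXB5 and HOXB8, against 33.5%. The joint PBX-HOX sequence TGATTNAT was found in 0 of 12 against 4.94%, and the CTCF consensus, the motif of a factor that sets domain borders inside HOX clusters, in 0 of 12 against 2.38%. With 12 regions these counts do not separate HOX regions from the rest, and a match is a stretch of letters, not a bound site.

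Noncoding genes inside the clusters share much of their windows with the coding ones. Of 19 listed noncoding genes 9 had a region in their window, beside 66.7% of the HOX coding genes, and 3 had one within 1 kb of a TSS, beside 15.4%, among them HOXA11-AS and HAGLR through the HOXA11 and HOXD1 regions already described. None had one in all 4 lists. HOTTIP at the HOXA13 end and the HOX microRNAs found in the annotation, MIR10B, MIR196A1, MIR196A2, MIR196B and MIR615, had no region in their windows. HOTAIR, in HOXC, had only the NS DMSO region near HOXC10.

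Genes that flank the clusters had peaks at their start sites about as often as genes in general. Of 11 flanking genes 6 had a region within 1 kb, beside 53.1% of all protein-coding genes, and HIBADH beside HOXA, TTLL6 beside HOXB, CALCOCO1 and SMUG1 beside HOXC and LNPK beside HOXD had one in all 4 lists, beside 35.2%. At CALCOCO1 the folds were 6.15, 6.13, 7.19 and 6.49 in the order of the lists above, higher than any HOX value. The 2 even-skipped homeobox genes that adjoin HOX clusters, EVX1 and EVX2, had no region within their windows, as was the case for 13 of the 39 HOX genes. The nearest lay 54.8 kb and 13.1 kb from a TSS. PRAC1, next to HOXB13, was 48.4 kb from a region.

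The partners and regulators of HOX proteins are read beside the same shares of all protein-coding genes, 53.1% with a region within 1 kb and 35.2% with one in all 4 lists. Of 9 TALE cofactors, which bind DNA together with HOX proteins, 8 had a region within 1 kb and 5 had one in all 4 lists, with PBX3, PBX4, MEIS1 and PKNOX1 among them. The folds at PKNOX1 were 5.59, 4.36, 6.08 and 5.91. All 6 listed genes of the MLL complexes and their partners had one, 4 of them (MEN1, DOT1L, ASH2L and RBBP5) in all 4 lists, while KMT2A, which encodes MLL itself, had folds of 3.37 in the list labelled NS DMSO and 3.07 in NS rottlerin only. Of 13 Polycomb genes 10 had a region within 1 kb and 6 had one in all 4 lists, including the H3K27 methyltransferases EZH1 and EZH2 and their partner EED, but the nearest to SUZ12, another partner, was 12.9 kb from its TSS. The 3 CDX genes, upstream activators of HOX genes in the embryo and the gut, had 0 within 1 kb.

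Regions just beyond the limits were few. The nearest region outside the HOX windows, chr2:177039729-177039948, lay 10924 bp from a HOXD3 TSS with a fold of 3.48 in the list labelled SW rottlerin alone, and the next was 24.8 kb from HOXB1 with a fold of 3.18 in the same list. Inside, the region farthest from any HOX TSS was that of HOXC10 at 4147 bp. Around the 1 kb limit, the HOXC4 region at 975 bp was inside and the HOXD1 region at 1095 bp was outside.

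The counts rest on which lists are used. With the 2 lists labelled DMSO alone, the only ones whose drug label is that of the study's peak calling, 6 HOX regions and 16 genes with a region in their window were left, and 3 genes with one within 1 kb. With each list cut to its 18977 strongest peaks, 9 HOX regions and 21 genes remained, and 5 genes had a region within 1 kb.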

How the data were processed

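FAIRE-seq peak lists of 4 Jurkat libraries were used, 1 per label group, and the other 5 of 9 samples were not analysed here. According to its methods, the study used MACS2 in broad mode to call each library's peaks, with total input as control, after Bowtie2 alignment to Hg19. CutAdapt (adapters) and Picard (duplicates) cleaned the data. Tool versions are not given in the sources used here. For every peak the deposited lists hold a score, a ratio (fold enrichment over input) and the p-value and q-value as −log10, as the authors' peak caller wrote them. The score is that q-value column multiplied by 10 and cut to a whole number. The deposited peaks carry no read counts, so sequencing depth is unknown and no interval is given.

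Peaks that overlapped by at least 1 bp or touched were merged, a region took the highest fold of each list's peaks in it, and only regions on autosomes, X or Y were kept. Genes, every transcript's TSS and exons came from GENCODE release 44 on GRCh37, and distances run from the nearest edge of a region or peak. Sequences were read from the GRCh37 genome. The tools were matplotlib 3.10.9, samtools 1.23.1, pysam 0.24.0, numpy 2.4.6 and Python 3.11.15, and merging, assignment and motif search were tested on simulated data.

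The members, gene lists and motifs were chosen with earlier results of these data known. HOX regions were named with their values, since no cluster held more than 5; some genes, a region and sequences are not reported here, though counts include them. Of the listed names, 1 microRNA and 1 older symbol of a flanking gene were not matched in the annotation and have no value. Alternatives changed the q-value limit, the number of peaks per list, the merging, the overlap, the window, the start site and the lists used. With 1 library per list no test between lists was made.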

Additional observations from a re-analysis of the deposited data

How the results depend on the processing

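Of 82 alternative values 73 stayed within 1.5 times the main count or, for folds, equal to it, and 9 moved. With only the 2 lists labelled DMSO, chosen after seeing the data, HOX regions fell from 12 to 6, HOX genes with a region in their window from 26 to 16, genes with one within 1 kb from 6 to 3, and regions without a peak of the list labelled NS DMSO from 10 to 4. Leaving out each list in turn gave 7 to 12 HOX regions, 18 to 26 genes with a window region, 3 to 6 genes within 1 kb, 3 to 5 genes and 1 to 2 regions in all lists kept, and 5 to 10 regions without a peak of the list labelled NS DMSO. The low ends of 7 regions, 3 genes within 1 kb and 5 regions came without the list labelled SW rottlerin, and the high ends of 5 genes and 2 regions in all lists without the list labelled NS DMSO. A q-value limit of 0.001 left 10 HOX regions and 21 genes. A window of 5 kb left 18 genes, and using the 5′ end of the gene record only left 23. The folds of the HOXC4 region were equal under every alternative run for them, and these values are among the 73. Those alternatives drop peaks or weight them by length, which cannot change the fold of a single kept peak. Their equality therefore says nothing about stability. No paired analysis was possible because each list is 1 library. Depth is unknown from the lists, so a start site without a peak may be one not called.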
